A study of Mus musculus with 6 samples.

Results

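B cell and MHC class II transcripts were followed in splenic T cell preparations of DUSP4-/- and WT mice, as a reading of how much B cell and antigen-presenting cell RNA each preparation held. The list held 32 genes: the B cell receptor complex and surface proteins, coreceptors and inhibitory receptors, transcription factors, signaling proteins and MHC class II genes, with no immunoglobulin gene. A member was measured by a probe set that names its gene alone, and where a gene had several, by the one with the highest mean over the 6 arrays. In this way 29 of the 32 genes were measured, out of 22180 genes on the array. Cd74 and Cd72 have only probe sets that name a further gene, and Lyn is named by no probe set in the annotation used, so these 3 were not analysed here.

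The study set T cells lacking the dual-specificity phosphatase DUSP4 against T cells with it, and 3 DUSP4-/- and 3 WT samples were profiled, numbered 1 to 3 in each genotype and described as independent pairs. Spleens came from mice aged 6 to 8 wk, and the cells received no agent. Both genotypes were on the C57Bl/6 background, which the knockout reached by backcrossing, and no further allele is named for either genotype. T cells were taken by magnetic sorting to a stated purity of 90 to 95% and lysed at once, without culture, which leaves room for cells of another type. In the paper that figure is the CD4+ purity of a sort that also removes CD8+ cells. Cd8a was high on every array (below), so whether the figure applies to these samples is not settled here. An Affymetrix Mouse Gene 2.0 ST array was run per sample, and all values below are log2 expression values, with differences given as DUSP4-/- minus WT.

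In a B cell the antigen receptor signals through the paired CD79 chains to the kinases SYK and BTK and the adapter BLNK, and coreceptors such as CD22 set how strong that signal is. PAX5 and EBF1 hold the B cell gene program in place. MHC class II molecules carry peptides of engulfed proteins to CD4 T cells and are made by B cells, dendritic cells and activated macrophages, while resting mouse T cells make neither these nor the CD79 chains. In a bulk sample such as these, fewer cells of a type and less RNA per cell cannot be told apart.

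The class II genes share a promoter design, and 4 of the 5 measured class II genes have a window of 250 bases before to 50 bases after the start in the RefSeq set for GRCm38.p6. These windows are shown because the 5 class II genes shared 1 order of the arrays. Other members, Cd79a, Cd22 and Pax5 among them, had the same order, and a link between promoter letters and this order was not tested. The Y box, bound by NF-Y and spelled here as TGATTGG, and the X box, bound by the RFX complex on which the coactivator CIITA assembles and spelled here as AACNNNTGA, were searched on both strands. Capitals mark a Y box and, before it where these letters were found, an X box.
H2-Aa (chr17:34287774-34288073, minus strand): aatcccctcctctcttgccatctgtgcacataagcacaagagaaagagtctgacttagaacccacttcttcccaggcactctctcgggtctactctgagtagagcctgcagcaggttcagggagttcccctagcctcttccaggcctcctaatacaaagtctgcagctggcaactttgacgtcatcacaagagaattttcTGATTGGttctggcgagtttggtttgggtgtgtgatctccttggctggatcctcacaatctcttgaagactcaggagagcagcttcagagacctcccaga
H2-Eb1 (chr17:34305617-34305916, plus strand): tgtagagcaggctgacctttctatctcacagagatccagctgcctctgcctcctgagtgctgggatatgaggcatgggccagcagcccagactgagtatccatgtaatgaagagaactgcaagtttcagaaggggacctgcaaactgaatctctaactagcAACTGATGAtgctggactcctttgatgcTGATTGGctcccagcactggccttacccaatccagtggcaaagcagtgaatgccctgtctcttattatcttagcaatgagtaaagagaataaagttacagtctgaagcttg
H2-DMb2 (chr17:34144999-34145298, plus strand): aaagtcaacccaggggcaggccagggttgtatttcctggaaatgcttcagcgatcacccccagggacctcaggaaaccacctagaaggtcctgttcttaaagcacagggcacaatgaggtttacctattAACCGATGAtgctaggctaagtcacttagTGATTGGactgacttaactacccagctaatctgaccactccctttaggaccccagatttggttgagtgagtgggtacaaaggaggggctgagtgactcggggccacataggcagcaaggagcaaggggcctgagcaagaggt
H2-Ob (chr17:34238655-34238954, plus strand): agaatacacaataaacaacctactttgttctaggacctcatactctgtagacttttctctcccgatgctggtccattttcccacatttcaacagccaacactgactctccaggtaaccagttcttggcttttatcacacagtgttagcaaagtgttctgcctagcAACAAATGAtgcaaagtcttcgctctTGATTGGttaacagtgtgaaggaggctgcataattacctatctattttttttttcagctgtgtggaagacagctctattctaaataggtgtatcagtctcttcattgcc
The Y box began 50, 61, 92 and 59 bases before the start of H2-Aa, H2-Eb1, H2-DMb2 and H2-Ob in that order of genes. In H2-Eb1, H2-DMb2 and H2-Ob an X box preceded it, with 19, 20 and 17 bases between them, and the X box letters were not found in the H2-Aa window. The search allowed no mismatch, so an X box spelled otherwise would be missed, and H2-Aa cannot be said to lack one. Of all 32851 windows in the set 7.82% held the Y box letters, 11.9% the X box letters and 0.253% both on the strand of the gene. These spellings were picked after the sequences had been seen, and a match describes the letters and is not a measurement of binding.

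Among the B cell genes, the window of Cd79a is shown because Cd79a had the largest difference between replicates 1 and 2 of the 29 members. Capitals mark CAAGGGAAT, the EBF1 element of this promoter, which began 174 bases before the start.
Cd79a (chr7:24897247-24897546, plus strand): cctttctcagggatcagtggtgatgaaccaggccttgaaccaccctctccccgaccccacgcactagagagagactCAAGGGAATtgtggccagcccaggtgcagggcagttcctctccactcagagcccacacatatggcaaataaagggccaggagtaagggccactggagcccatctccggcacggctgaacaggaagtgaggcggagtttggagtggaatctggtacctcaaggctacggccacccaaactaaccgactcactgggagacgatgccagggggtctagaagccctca
This element was found in 0.244% of all windows, on either strand, and among the 25 members with a window only in that of Cd79a. The general EBF1 core CCCNNGGG was found in 13.7% of windows and in those of Bank1, Cd22, H2-DMb2 and Spib, and the octamer ATGCAAAT, bound by OCT proteins with the coactivator encoded by Pou2af1, was found in 1.74% of windows and in those of Blnk and Vpreb3. Fcer2a and Fcrla held the Y box and X box letters beside the class II genes.

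The arrays were first checked as T cell samples of their genotype. Cd3e, part of the CD3 complex of T cells, lay between 11.49 and 11.78 in all 6 arrays, and 14 measured T cell markers spanned 0.14 in their median level. Dusp4 was 5.10, 6.18 and 6.78 in DUSP4-/- arrays 1 to 3, against 6.33, 7.61 and 8.13 in WT arrays 1 to 3, lower in the knockout within each pair although the groups overlapped. The legend for these arrays points to a sort that removes B220+, CD11b+, CD49b+, Ter119+ and CD8+ cells. Cd8a, however, was 10.76, 10.45 and 10.32 in DUSP4-/- arrays and 10.79, 10.56 and 10.40 in WT arrays, above 98.7% of probe sets, so which antibodies were used is not settled here. Xist, the RNA that coats an inactive X chromosome, was 10.12 in DUSP4-/- array 1 and 10.09 in WT array 1, against 3.58 to 3.87 in the other 4, and no sex is given in the labels. Replicate number, this apparent sex and whatever else the samples of a pair share cannot be told apart.

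B cell and class II transcripts were present in every preparation, and their level followed the replicate number much more than the genotype. The level of an array was taken as the median over the 29 genes of the value minus the mean of that gene over the 6 arrays. It was 0.45, -0.39 and -0.13 in DUSP4-/- arrays 1, 2 and 3, against 0.36, -0.32 and 0.018 in WT arrays 1, 2 and 3. Array 1 was the highest and array 2 the lowest of both genotypes, the genotypes overlapped, and the whole span of 0.85 corresponds to 1.8-fold. The T cell markers over the same arrays spanned 1.11-fold and all genes 1.03-fold. Quantile normalization holds the all-gene median near 0, and genes of opposite sign cancel in a list median. Per gene, the median range over the 6 arrays was 0.92 for the members, 0.30 for the T cell markers and 0.51 for all genes. Of the 29 genes 26 were brighter than the median probe set, and Fcer2a, Cr2 and Vpreb3 were dimmer.

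**Figure D1:**
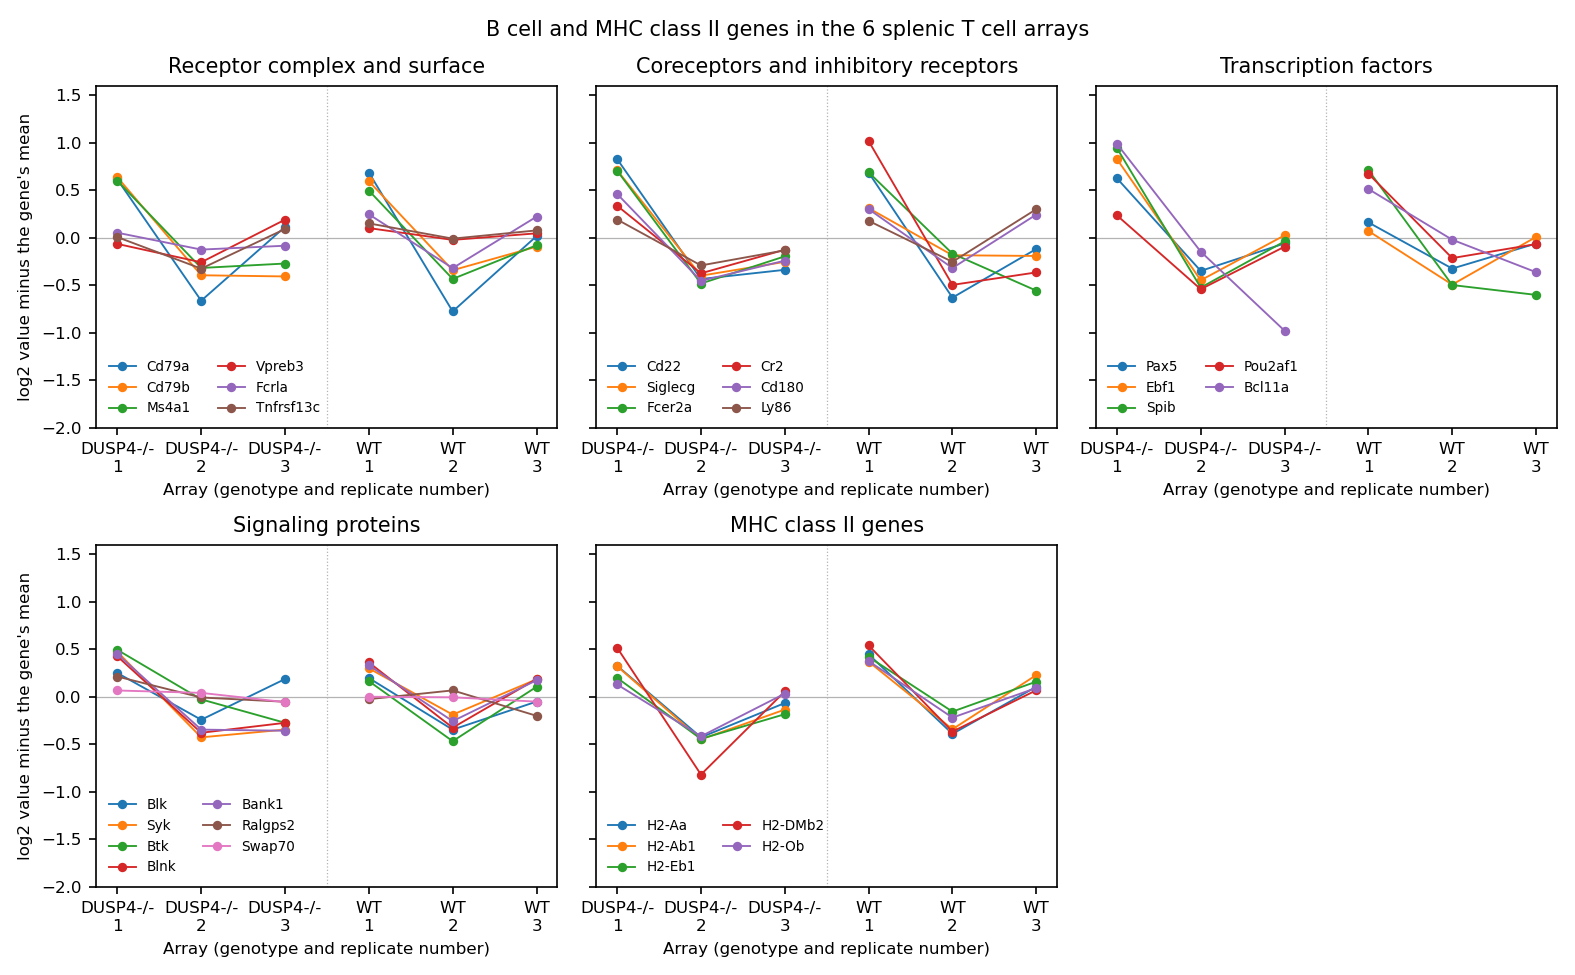
Log2 value minus the mean of that gene over the 6 arrays (vertical axis) for the 29 measured B cell and MHC class II genes, in DUSP4-/- arrays 1 to 3 and WT arrays 1 to 3 (horizontal axis), with a panel for each gene group and a line for each gene within a genotype. In both genotypes most lines are highest at replicate 1 and lowest at replicate 2, while Swap70 and Ralgps2 are nearly flat.

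Gene by gene, array 1 was the highest of its genotype in both DUSP4-/- and WT samples for 25 of the 29 members, against 21.9% of all genes, and array 2 was the lowest in both for 20 members, against 10.9% of all genes. The median difference between replicate 1 and replicate 2, averaged over the genotypes, was 0.75 for the members and 0.0041 for all genes, and 23 members differed by over 0.5. Differences of both signs cancel in the all-gene median. Taken without sign, the median size was 0.75 for the members and 0.17 for all genes. Genotype differences had a median size of 0.13 for the members and 0.092 for all genes. For 27 of the 29 members the difference between replicates 1 and 2 was larger in size than the genotype difference, as it was for 65.9% of all genes. In a limma fit with genotype and replicate number, run after this pattern had been seen, 4 members passed an adjusted p of 0.05 for replicate number, against 2.45% of all genes, and 22 had an unadjusted p below it, against 22.4%. The 4 were Cd79a, Cd22, Spib and Cd79b. This count rests on few arrays, since 2 members passed without DUSP4-/- replicate 3 and 0 without any other single array. In those fits 4 to 102 genes in all passed the threshold, where the full set gave 543. Leaving out probe sets dimmer than the median gave 19 of the 26 members left and 2965 of the 11425 genes left.

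Within the receptor complex and surface group, Cd79a and Cd79b encode the signaling chains of the B cell receptor and Ms4a1 encodes CD20. Cd79a was 8.61, 7.33 and 8.11 in DUSP4-/- arrays 1 to 3 and 8.68, 7.22 and 8.01 in WT arrays 1 to 3. Both genotypes thus shared the same order, with array 1 highest and array 2 lowest, and overlapped throughout. Averaged over genotypes, replicate 1 was 2.59-fold above replicate 2 (95% CI 2.11 to 3.17, limma adjusted p = 0.026 for replicate number), whereas the DUSP4-/- mean of 8.02 ± 0.64 and the WT mean of 7.97 ± 0.73 (SD, n = 3 each) differed by 0.046 (95% CI -0.90 to 0.99). Cd79b was 8.02, 6.99 and 6.98 in DUSP4-/- arrays and 7.98, 7.05 and 7.29 in WT arrays. Here array 1 stood alone in each genotype, 1.98-fold above array 2 (95% CI 1.57 to 2.5), with a limma adjusted p of 0.045 for replicate number. Ms4a1 was 7.36, 6.44 and 6.49 in DUSP4-/- arrays and 7.26, 6.32 and 6.68 in WT arrays, with the same order of arrays. Its difference between replicates 1 and 2 was 0.92 (95% CI 0.59 to 1.25). The limma adjusted p for replicate number was 0.0503, above the threshold, and the genotype difference was 0.0086 (95% CI -0.69 to 0.71).

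The other 3 members of this group varied less. Tnfrsf13c, the receptor for the B cell survival factor BAFF, lay between 6.53 and 6.95 in DUSP4-/- arrays and between 6.85 and 7.01 in WT arrays. Fcrla, an intracellular Fc receptor-like protein of B cells, lay between 5.21 and 5.38 in DUSP4-/- arrays and between 5.01 and 5.58 in WT arrays. Vpreb3, a protein of the early B cell lineage that associates with immunoglobulin chains, was dim, between 3.91 and 4.36 in DUSP4-/- arrays and between 4.15 and 4.27 in WT arrays. Their differences between replicates 1 and 2 were 0.25, 0.37 and 0.16 for Tnfrsf13c, Fcrla and Vpreb3, all with a 95% CI that held 0, and their genotype differences were -0.15, -0.10 and -0.086.

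Coreceptors and inhibitory receptors showed the replicate pattern more fully, with a median difference of 0.91 between replicates 1 and 2 over 6 genes. Cd22, a sialic acid-binding lectin that damps receptor signaling, was 6.75, 5.49 and 5.59 in DUSP4-/- arrays 1 to 3 and 6.61, 5.29 and 5.81 in WT arrays 1 to 3. Array 1 of each genotype lay above the other 4 arrays, a 2.45-fold difference from array 2 (95% CI 1.9 to 3.15). The limma adjusted p for replicate number was 0.037, and the genotypes differed by 0.04 (95% CI -0.89 to 0.97). Cr2, the complement receptor of mature B cells, was 4.36, 3.65 and 3.90 in DUSP4-/- arrays and 5.04, 3.52 and 3.66 in WT arrays, so that only pair 1 stood below 0, at -0.68, against 0.12 and 0.24 in pairs 2 and 3. Fcer2a, the low-affinity IgE receptor CD23, was 5.09, 3.90 and 4.18 in DUSP4-/- arrays and 5.07, 4.21 and 3.82 in WT arrays, again with array 1 the highest of each genotype. Siglecg, another inhibitory lectin, lay between 5.15 and 6.26 in DUSP4-/- arrays and between 5.35 and 5.86 in WT arrays. It was 0.80 higher in replicate 1 than in replicate 2, and the replicate test gave an adjusted p of 0.097 for it, 0.058 for Fcer2a and 0.10 for Cr2.

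Cd180 and its partner Ly86, an innate receptor pair of B cells that myeloid cells also express, had differences of 0.77 and 0.46 between replicates 1 and 2. Cd180 lay between 6.34 and 7.25 in DUSP4-/- arrays and between 6.47 and 7.09 in WT arrays. Ly86 was 8.02, 7.53 and 7.69 in DUSP4-/- arrays and 8.01, 7.57 and 8.13 in WT arrays, and here WT array 3 rather than array 1 was the highest of its genotype. In pair 3 DUSP4-/- lay below WT by 0.49 for Cd180 and by 0.43 for Ly86, and the monocyte, macrophage and neutrophil markers lay at -0.11 in DUSP4-/- array 3 against 0.22 in WT array 3. The part of those cells in the values of Cd180 and Ly86 was not tested.

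All 5 transcription factors had array 1 highest in both genotypes. Spib, an Ets factor of B cells and plasmacytoid dendritic cells, was 6.53, 5.06 and 5.55 in DUSP4-/- arrays 1 to 3 and 6.30, 5.09 and 4.99 in WT arrays 1 to 3. Replicate 1 was 2.53-fold above replicate 2 (95% CI 1.9 to 3.38). The limma adjusted p for replicate number was 0.039, and the genotype difference was 0.26 (95% CI -0.75 to 1.26). Pax5, which commits cells to the B lineage, was 6.03, 5.06 and 5.35 in DUSP4-/- arrays and 5.57, 5.08 and 5.34 in WT arrays. Ebf1, which acts with it, was 6.53, 5.25 and 5.73 in DUSP4-/- arrays and 5.77, 5.21 and 5.71 in WT arrays. For both genes the genotypes were nearly level in pairs 2 and 3 and parted only in pair 1, by 0.47 for Pax5 and 0.76 for Ebf1. The median genotype difference of the group was 0.15, -0.15 without DUSP4-/- replicate 1 and -0.012 without both arrays of replicate 1.

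Pou2af1, the B cell coactivator of OCT factors that plasma cells keep, was the only member outside the class II genes to lie lower in the knockout in every pair. It was 7.00, 6.22 and 6.67 in DUSP4-/- arrays and 7.44, 6.55 and 6.69 in WT arrays, with pair differences of -0.44, -0.33 and -0.027 and overlapping groups. The difference of -0.26 had a 95% CI of -0.89 to 0.36, and of -0.55 to 0.025 once replicate number was blocked, and did not pass the test. Plasma cell markers lay at -0.051, -0.30 and -0.030 in DUSP4-/- arrays 1 to 3, against 0.37, -0.15 and 0.18 in WT arrays. In the knockout 8 of 9 were lower, against 44.1% of all genes. Of these 5 were lower in every pair, against 11.1%, and 1 marker was higher in every pair. Jchain, the joining chain of secreted IgM and IgA, had the lowest difference of the list, lower by 0.85, 0.73 and 0.61 in the pairs. The part of plasma cells in the Pou2af1 values was not tested. Bcl11a, a zinc finger factor of early B cells and dendritic cells, departed from the common order: it was 6.59, 5.46 and 4.62 in DUSP4-/- arrays and 6.12, 5.58 and 5.24 in WT arrays, so that array 3 was the lowest of both genotypes. A dimmer probe set for Bcl11a gave a genotype difference of 0.069, where the brighter gave -0.089, and both had array 1 highest in each genotype.

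Of the 7 signaling proteins 6 had array 1 highest in both genotypes, Swap70 among them by a narrow margin. Syk, the kinase recruited by the CD79 chains, Blnk, the adapter it phosphorylates, and Bank1, a scaffold of B cells, were higher in replicate 1 than in replicate 2 by 0.69, 0.75 and 0.69, and Btk, the kinase downstream of SYK, and Blk, a Src-family kinase of B cells, by 0.58 and 0.52. Blk was 6.70, 6.21 and 6.64 in DUSP4-/- arrays and 6.65, 6.10 and 6.40 in WT arrays, higher in the knockout in all 3 pairs, by 0.053, 0.10 and 0.24. Syk lay between 5.80 and 6.70 in DUSP4-/- arrays and between 6.04 and 6.52 in WT arrays, Blnk between 5.28 and 6.09 in DUSP4-/- arrays and between 5.34 and 6.03 in WT arrays. Bank1 lay between 6.36 and 7.17 in DUSP4-/- arrays and between 6.46 and 7.05 in WT arrays, and Btk between 5.36 and 6.13 in DUSP4-/- arrays and between 5.17 and 5.80 in WT arrays. For Syk, Blnk and Bank1 the knockout was above WT in pair 1 and below it in pairs 2 and 3. Swap70, a RAC-binding protein of B cells and other leukocytes, was 7.00, 6.97 and 6.88 in DUSP4-/- arrays and 6.93, 6.93 and 6.88 in WT arrays, and Ralgps2, an exchange factor for Ral GTPases, was 8.14, 7.92 and 7.88 in DUSP4-/- arrays and 7.90, 8.00 and 7.73 in WT arrays. For both of these the difference between replicates 1 and 2 was small, at 0.016 (95% CI -0.26 to 0.29) for Swap70 and 0.064 (95% CI -0.26 to 0.39) for Ralgps2.

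The 5 measured MHC class II genes showed the same order of arrays and, beside it, a small difference between the genotypes that had 1 sign in these 5, though not in every class II gene on the array. H2-Aa and H2-Ab1 encode the chains of I-A, H2-Eb1 a chain of I-E, H2-DMb2 a chain of H2-DM, which exchanges peptides, and H2-Ob a chain of H2-O, which restrains H2-DM in B cells. H2-Ab1 was 10.18, 9.41 and 9.72 in DUSP4-/- arrays 1 to 3 and 10.23, 9.52 and 10.09 in WT arrays 1 to 3. H2-Aa was 9.07, 8.32 and 8.68 in DUSP4-/- arrays and 9.19, 8.35 and 8.85 in WT arrays. In both genes each knockout array lay just under the WT array of its number while the groups overlapped, and replicates 1 and 2 were 0.74 apart for H2-Ab1 and 0.80 apart for H2-Aa.

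H2-Eb1 was 8.32, 7.67 and 7.93 in DUSP4-/- arrays and 8.54, 7.96 and 8.28 in WT arrays. It had the largest genotype difference below 0 of the members, 0.821-fold (95% CI 0.59 to 1.14), with pair differences of -0.22, -0.29 and -0.34. Once replicate number entered as a block its 95% CI was -0.51 to -0.053, with an unadjusted limma p of 0.024 and an adjusted p of 0.762. In that fit 6.19% of all genes had an unadjusted p under 0.05, and H2-Eb1 was the only member that did. H2-DMb2 was 7.02, 5.69 and 6.56 in DUSP4-/- arrays and 7.05, 6.14 and 6.58 in WT arrays, so its difference came almost wholly from pair 2, at -0.45, against -0.024 and -0.013 in pairs 1 and 3. H2-Ob was 8.14, 7.59 and 8.04 in DUSP4-/- arrays and 8.38, 7.79 and 8.10 in WT arrays, with pair differences of -0.25, -0.20 and -0.059. All 15 pair differences of these 5 genes were below 0, against 35 of 72 for the other members and 49.0, 47.2 and 42.7% of all genes in pairs 1, 2 and 3. The 15 values come from the same 3 pairs of samples and are not independent, so their number adds no replicates. The median difference of the 5 genes was -0.17, with pair medians of -0.12, -0.20 and -0.17.

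Class II genes outside the members did not all share this sign. H2-Eb2, a further I-E type chain, had pair differences of -0.28, 0.20 and 0.16, H2-Oa, the partner of H2-Ob, stood at 0.28 in pair 3, and H2-DMb1, a chain of the H2-DMb2 kind, at 0.11 in pair 2, while H2-DMa lay lower in the knockout in every pair. Of these, H2-Eb2 and H2-DMb1 were dimmer than the median probe set, and H2-Oa and H2-DMa were brighter. Over the 15 other genes of the class II pathway 10 lay below WT, with a median of -0.045, but 4 of 15 did so in pair 2, and the pair medians were -0.19, 0.050 and -0.051. None of the 5 members or of these 15 genes passed the test in either direction, and the 5 lie together on chromosome 17. Leaving out single arrays moved the median of the 5 from -0.39, without WT replicate 2, to 0.0078, without DUSP4-/- replicate 2. A left-out array leaves its partner in place, so the replicate difference enters these values. With both arrays of replicate 1, 2 or 3 left out, the median was -0.23, -0.15 and -0.22. Most dendritic cell markers lay in the same direction: their level was 0.13, -0.26 and -0.17 in DUSP4-/- arrays 1 to 3, against 0.20, -0.079 and -0.019 in WT arrays. In the knockout 7 of 9 were lower, against 44.1% of all genes, and 5 were lower in every pair, against 11.1%. The other 2 were higher, 1 of them in every pair, with a highest difference of 0.23. Cd209a was 8.87, 8.64 and 8.73 in DUSP4-/- arrays and 9.05, 8.97 and 8.88 in WT arrays, and Flt3, the receptor for a dendritic cell growth factor, was 6.17, 5.72 and 5.86 in DUSP4-/- arrays and 6.32, 5.96 and 6.23 in WT arrays. None of the 9 passed the genotype test, and their part in the class II values was not tested.

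The genotypes were not separated by any of the 29 members. No member passed an adjusted p of 0.05 in limma for DUSP4-/- against WT, in a table in which 0.0% of genes did, and blocking on replicate number changed neither count. Without the block, 0.05 unadjusted was reached by 599 genes and by no member. The genotype differences ran from 0.821-fold for H2-Eb1 to 1.21-fold for Ebf1, with 17 members below WT and 12 above and a median of -0.10, against 0.019 for all genes. The pair medians were 0.053, -0.054 and -0.062, of both signs. In no member did the 3 DUSP4-/- arrays stand clear of the 3 WT arrays, as they did in 7.44% of all genes. The 6 members lower in every pair were the 5 class II genes and Pou2af1, against 11.1% of all genes, and those higher in every pair were Ebf1 and Blk, against 16.6%.

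**Figure D2:**
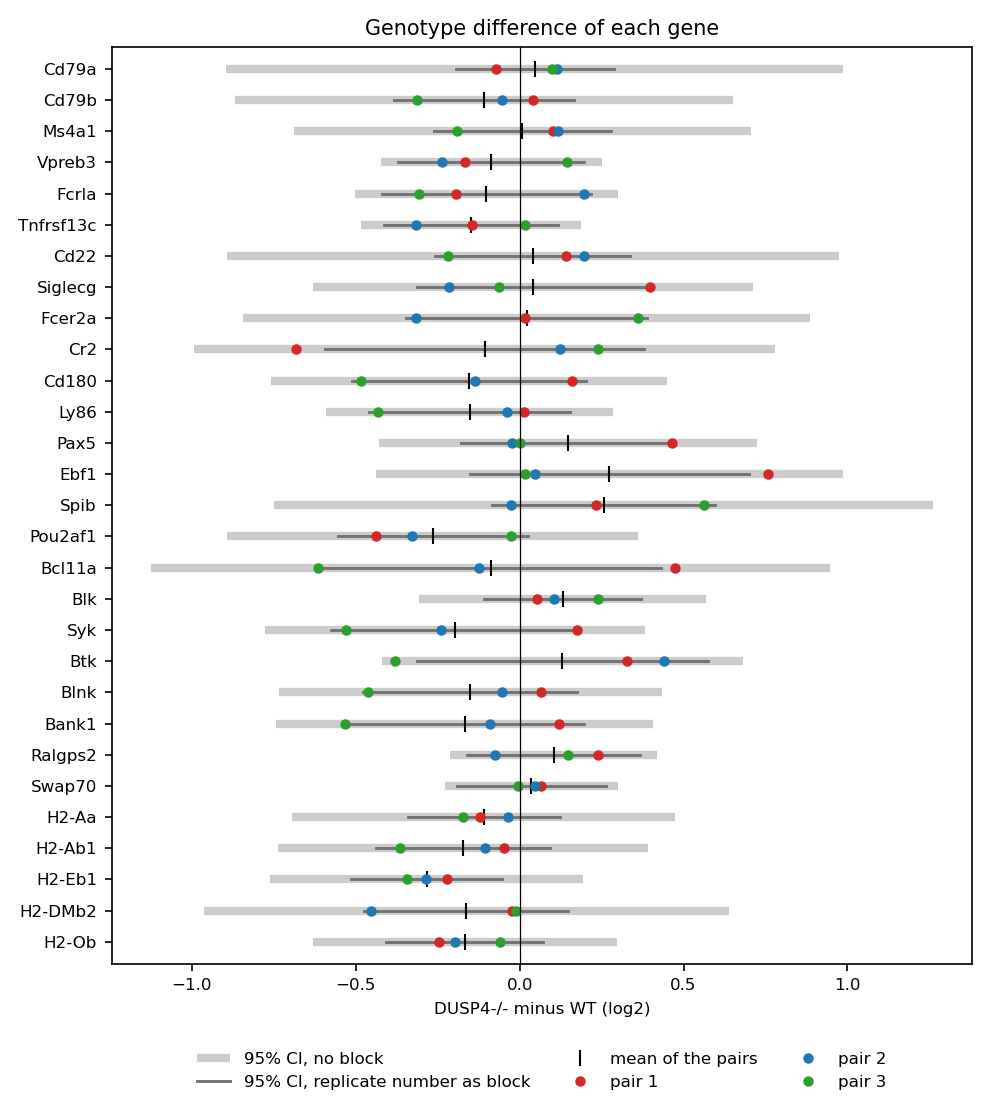
DUSP4-/- minus WT on the log2 scale (horizontal axis) for each of the 29 genes (vertical axis), as the difference within pair 1, 2 and 3 (coloured points), their mean (black tick), the 95% CI without a block (pale bar) and blocked on replicate number (dark bar). Every pale bar spans 0, and of the dark bars only that of H2-Eb1 lies wholly below 0.

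The precision set what could be seen. The 95% CI of a member's genotype difference was 1.17 wide in the median without a block and 0.615 wide with it, and the intervals differed between members. Their outermost limits were 0.458-fold and 2.4-fold without the block and 0.655-fold and 1.62-fold with it, while that of Cd79a with the block ran from -0.20 to 0.29 on the log2 scale. Leaving out a single array moved the median of the 29 genes between -0.30, without DUSP4-/- replicate 1, and 0.087, without WT replicate 1. With pair 1, 2 or 3 left out as a whole it was -0.10, -0.065 and 0.0053.

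**Figure D3:**
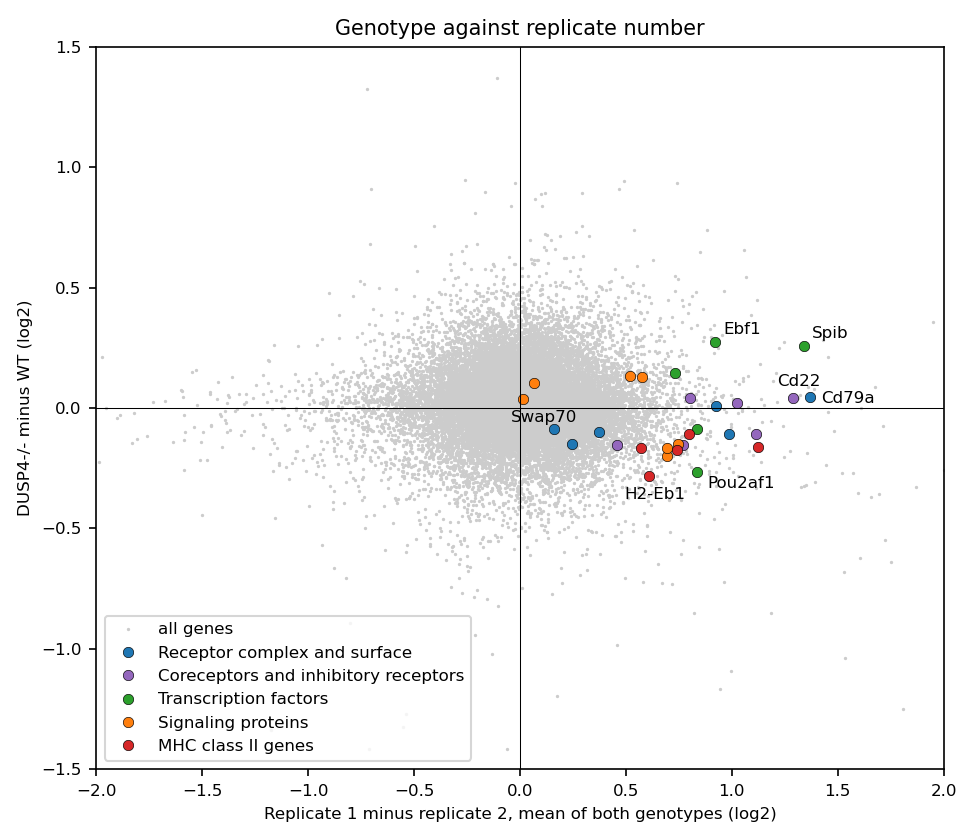
DUSP4-/- minus WT (vertical axis, log2) against replicate 1 minus replicate 2, averaged over the genotypes (horizontal axis, log2), for all 22180 genes (grey, 19 of them outside the axes) and the 29 members (coloured by group). The members spread to the right along the replicate axis, as far as 1.37 for Cd79a, and stay between -0.28 and 0.27 on the genotype axis.

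Genes of the same pathways were read from further lists. Of 13 other B cell surface genes, 11 had array 1 highest in both genotypes, with list levels of 0.26, -0.27 and -0.030 in DUSP4-/- arrays 1 to 3 and 0.28, -0.15 and -0.059 in WT arrays. Cxcr5, the receptor that guides B cells and follicular helper T cells to follicles, was 8.41, 7.01 and 7.38 in DUSP4-/- arrays and 7.99, 6.53 and 7.42 in WT arrays and passed the replicate test (limma adjusted p = 0.039). The brightest of the list, Ltb, Cd37 and Btla, which T cells also make, were 0.33, 0.54 and 0.42 higher in replicate 1 than in replicate 2. Of 15 other class II pathway genes 7 had array 1 highest in both genotypes. Ciita, the master coactivator of class II transcription, was 6.74, 5.92 and 5.90 in DUSP4-/- arrays and 6.93, 6.20 and 5.87 in WT arrays (limma adjusted p = 0.048 for replicate number), and Ifi30, a thiol reductase of antigen processing, was 0.73 higher in replicate 1 than in replicate 2, while the broadly expressed Ctss and Nfya stood at -0.22 and 0.20 for replicate 1 minus replicate 2.

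Other genes of B cell receptor signaling and B cell transcription, most of which T cells use as well, shared the pattern in part: 5 of 14 and 6 of 12 had array 1 highest in both genotypes, against 21.9% of all genes, and their list levels spanned 1.09-fold and 1.12-fold over the 6 arrays. The brightest of them, Malt1, Ptpn6 and Pik3cd in the first list and Foxo1, Ikzf3 and Bach2 in the other, differed between replicates 1 and 2 by at most 0.22 in size. Several dimmer genes stood nearer to the members, with replicate 1 above replicate 2 by 0.72 for Pou2f2, which encodes OCT2, 0.62 for Rasgrp3, 0.50 for Irf8 and 0.35 for Plcg2, none past the replicate test. Bcl10, the partner of MALT1, passed the replicate test in the opposite direction, at 7.60, 8.70 and 8.996 in DUSP4-/- arrays and 7.50, 8.67 and 9.03 in WT arrays (limma adjusted p = 0.019). No gene of these 4 lists passed the genotype test.

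Markers of particular B cell stages did not follow the members as a group. Marginal zone markers, of which Dtx1, Cd9 and Cd1d1 were the brightest, germinal center markers, with Bcl6, S1pr2 and Gcsam, and precursor markers, with Cd93, Dntt and Igll1, had array 1 highest in both genotypes for 1 gene of 5 each, against 21.9% of all genes. Only 3 of 5 marginal zone, 2 of 5 germinal center and 2 of 5 precursor markers were brighter than the median probe set. Little can therefore be read from these lists about B cell stages. Precursor markers lay at 0.24, -0.038 and 0.040 in DUSP4-/- arrays against -0.032, -0.068 and -0.084 in WT arrays. Of these 4 of 5 were higher in the knockout, against 55.9% of all genes, and none passed the test. Among plasma cell markers, Jchain and Xbp1 passed the replicate test in different directions, with replicate 1 above replicate 2 by 0.72 for Jchain and Xbp1 at -0.66, and Ell2 differed by -0.32.

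Markers of the other cells that a splenic sort can leave behind gave a mixed picture beside the members. Monocyte, macrophage and neutrophil markers had another order, at -0.12, 0.091 and -0.11 in DUSP4-/- arrays 1 to 3 and -0.14, 0.12 and 0.22 in WT arrays, and 1 of 15 had array 1 highest in both genotypes. Csf1r, the receptor for a macrophage growth factor, was 6.59, 7.01 and 6.37 in DUSP4-/- arrays and 6.02, 7.24 and 7.34 in WT arrays, lowest in array 1 of WT where the B cell genes were highest, and Cd68 and Ccr2 differed by 0.31 and 0.066 between replicates 1 and 2. Dendritic cell markers followed in part, with 5 of 9 highest in array 1 of both genotypes and Xcr1 past the replicate test (limma adjusted p = 0.039), and Ccr9 was 0.43 higher in replicate 1 than in replicate 2. NK cell markers, Eomes, Ncr1 and Gzma among 4, were at 0.41 in DUSP4-/- array 1 and between -0.20 and 0.093 in the other 5, and erythroid and platelet markers, Itga2b, Gp9 and Hemgn among 6, spanned 1.19-fold.

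T cell markers were the steadiest of the cell type lists, at 0.055, 0.022 and -0.029 in DUSP4-/- arrays and 0.065, 0.0098 and -0.080 in WT arrays. Cd3e, Cd3g and Lef1, the brightest of the 14, differed between replicates 1 and 2 by 0.21, -0.049 and -0.048. Single T cell genes nonetheless varied with the replicate number. Il7r was 0.61 higher in replicate 1 than in replicate 2, and Cd28 stood at -0.69. Their limma adjusted p-values for replicate number were 0.042 and 0.049. The replicate number thus separated genes of both B cells and T cells, and what the samples of a number had in common was not tested.

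**Figure D4:**
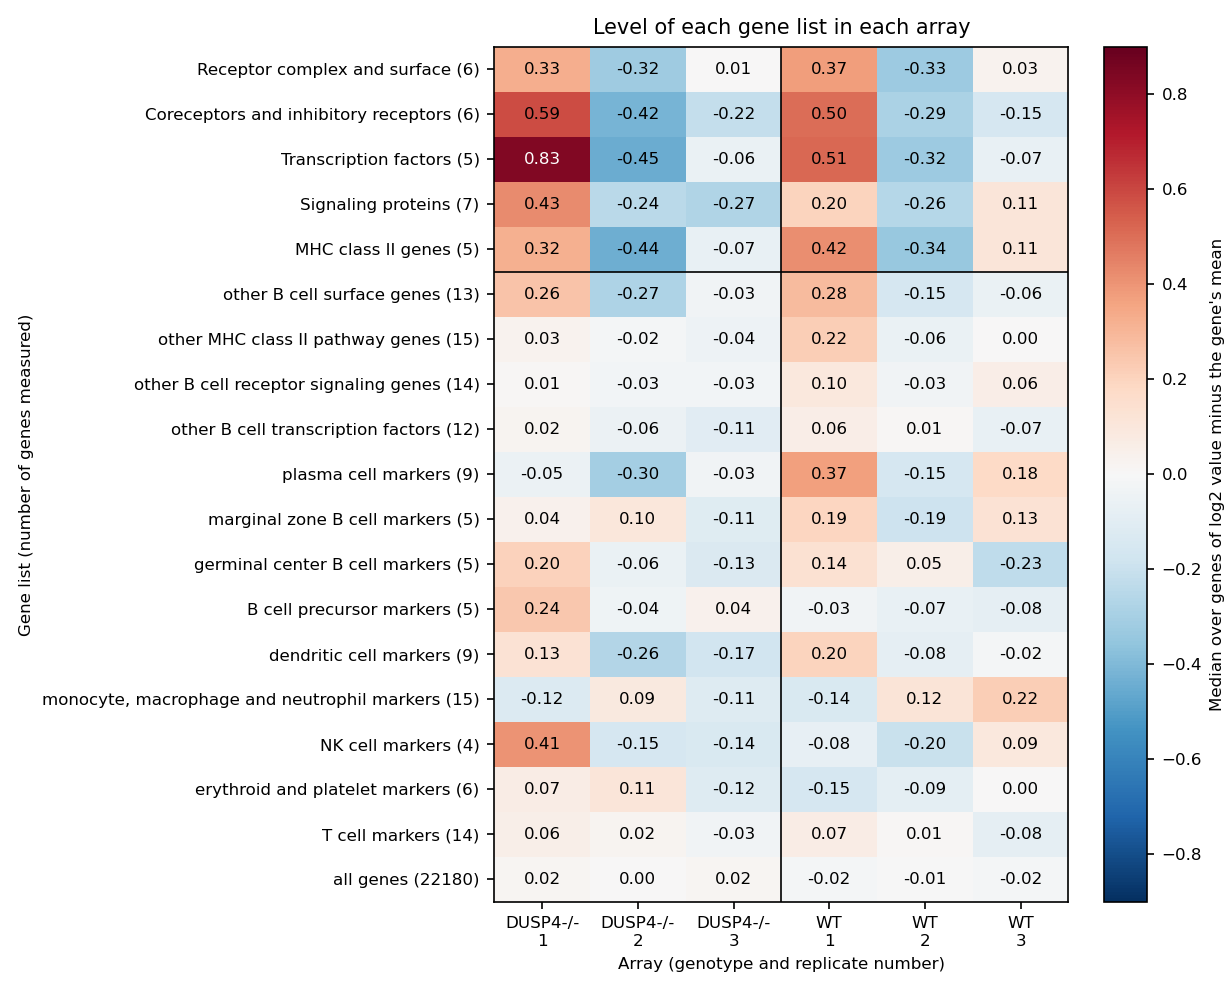
Level of each gene list (vertical axis, number of genes measured in brackets) in each of the 6 arrays (horizontal axis, DUSP4-/- left of WT), as the median over genes of the log2 value minus the mean of that gene, written in each cell and coloured from blue (below) to red (above). The 5 member groups in the upper block are red in array 1 and blue in array 2 of both genotypes, while T cell markers and all genes stay close to 0. Quantile normalization holds the all-gene median there.

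The members moved together closely. Over the 6 arrays 21 of 29 had a Pearson r above 0.8 with the mean of the other members, and 13 were above 0.9, with a median of 0.89, from 0.30 for Vpreb3 and Swap70 to 0.98 for Ms4a1. The 6 arrays are 3 pairs, so these coefficients describe few independent points and come from the same arrays. The profile was not particular to B cell genes, because 14.2% of the 5148 genes brighter than the median with a range of at least 0.5 also had an r above 0.8 with the mean of the members. The 12 closest, with r between 0.98 and 0.99, were Atp2b4, H1f5, 4930555G01Rik, B3galt4, Fastkd3, Pglyrp1, Mrpl52, G6pc3, Clec2d, Dcaf12, Sh2d1a and Ifi30, and only Ifi30 stood in any of the B cell or class II lists. Clec2d, a lectin-like ligand of an NK cell receptor, was 10.30, 8.69 and 9.06 in DUSP4-/- arrays and 10.30, 8.69 and 9.06 in WT arrays, with the genotypes level and replicate 1 higher by 1.61 than replicate 2.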

How the data were processed

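Each of 3 DUSP4-/- and 3 WT samples was run on 1 array. The authors deposited log2 values made by RMA in Affymetrix Expression Console (versions not given in the sources used here), which corrects background, quantile-normalizes arrays and summarizes probes, so a shift common to all genes is removed. Array medians were 4.99 to 5.07. The study names an analysis of variance.

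Of 41345 probe sets, 23521 name 1 gene and were tested, while 1820 name several and 16004 none. Gene names came from GRCm38.p6, which 23328 probe sets matched, and 25 of the 29 measured members had a RefSeq promoter window of that build. Genotypes were compared with limma 3.58.1 (lmFit, eBayes) in R 4.3.3, two-sided, without a block, with Benjamini-Hochberg adjustment over all tested probe sets and a threshold of 0.05. The code was tested on simulated data. P-values weigh a difference against the spread between these samples, which without the block includes the differences between replicate numbers. The study calls its samples independent pairs, and deviations of same-numbered samples correlated at 0.313 to 0.584, against -0.444 to 0.095 for different numbers, so the number was used as a block beside the fit without one. The test of replicate number was added after seeing the data.

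The members and lists were chosen with earlier results of these data known. All members are named, with up to 3 of the brightest genes of each further list, the 12 genes most correlated with the members, Dusp4 and Xist. List genes past the replicate test, those set beside the class II members, Pou2f2, Rasgrp3, Irf8, Plcg2, Cd8a, the values of Clec2d and the motifs were picked after seeing them. Alternatives were the block, each array or pair left out, other normalizations, no dim probe sets, array weights, intensity trend and robust settings, the mean over probe sets, a gene-wise analysis of variance and a threshold of 0.1.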

Additional observations from a re-analysis of the deposited data

How the results depend on the processing

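No member passed the genotype test under any alternative run, and over all genes the count was 0 except for 1 gene without WT replicate 1 and 1 without replicate 1 of both genotypes. With the replicate block no gene passed, while the differences themselves cannot move in this balanced design, so that the median of the 29 genes, -0.10, is not a check there. A gene-wise analysis of variance gave 788 genes at an unadjusted p under 0.05 and none after adjustment. Leaving out 1 array or 1 pair in turn moved the median from -0.30 (without DUSP4-/- replicate 1) to 0.087 (without WT replicate 1), that of the receptor and surface genes from -0.25 to 0.080, coreceptors from -0.32 to 0.29, transcription factors from -0.15 to 0.36, signaling proteins from -0.085 to 0.071 and class II genes from -0.39 to 0.0078, and 3 to 9 members changed sign. A left-out array leaves its partner of the same number in place, and the replicate difference then enters the genotype difference. With pair 1, 2 or 3 left out as a whole, the class II median was -0.23, -0.15 and -0.22. Array weights moved the receptor and surface genes to -0.0067. The count of members that differed between replicate numbers was 2 after a further quantile normalization, and without single arrays ran from 0 to 2 (of 4 to 102 genes). Without dim probe sets it was 19 of the 26 members left, with 2965 of the 11425 genes left. The span of the level over the arrays stayed between 0.79 and 0.99.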
